A study of Mus musculus with 6 samples.

Results

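Transcripts of 10 Polycomb repressive complex genes were examined in metaphase II (MII) oocytes that had been matured in vitro with or without quercetin, a plant flavonol. The genes were chosen by symbol, as a list of Polycomb subunits, and all 10 were found among the 53465 genes of the count table. They were Ezh1, Ezh2, Eed, Suz12 and Jarid2 of Polycomb repressive complex 2 (PRC2), and Ring1, Rnf2, Pcgf1, Pcgf6 and Cbx2 of Polycomb repressive complex 1 (PRC1). The oocytes came from female Kunming (KM) mice aged 9 to 10 months, with no allele or transgene named in the labels. The control group was 3 pools matured without quercetin, and the quercetin group was 3 pools matured with 10 μM quercetin. Each pool combined 15 oocytes from 3 mice, and RNA was amplified with the Smart-seq HT kit, so a value is an average over oocytes and variation from oocyte to oocyte is not seen. Young mice were not analysed here, and it is not stated whether pools of a group came from separate mice, so a p-value measures the spread between these pools.

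Polycomb proteins keep genes silent through marks on histones. PRC2 methylates histone H3 at lysine 27 through EZH1 or EZH2, which need EED and SUZ12 for activity, and JARID2 helps to bring the complex to chromatin. PRC1 ubiquitinates histone H2A at lysine 119 through RING1 or RNF2 (also called RING1B). Each PRC1 complex holds a PCGF protein that sets its subtype, and canonical forms hold a CBX protein that binds the methylated histone. In the mouse oocyte both marks are laid down during growth, and some of the methylated regions pass to the embryo as maternal imprints that do not depend on DNA methylation. An MII oocyte is transcriptionally silent, so the counts come from stored maternal RNA. How fully the amplification captured each stored RNA was not measured.

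Total counts per pool ran from 7880467 to 9938743, and expression is given as CPM (counts scaled to a common library total) on library sizes scaled by TMM, a method that centres most genes between pools. All 10 oocyte markers examined were detected and tested, and their summed level was 16240 to 20140 CPM in the controls and 17790 to 19460 CPM with quercetin. Single markers varied more between pools. Zp2 was at 223, 1554 and 628 CPM in the controls and at 131, 846 and 1321 CPM with quercetin. From the lowest to the highest pool this was 11.9-fold. Zp1, Zp3 and Ooep varied 3.26- to 4.11-fold, and the other markers 1.35- to 1.89-fold. Of 12 cumulus and granulosa cell markers, 9 were too low to test, among them Amh, Foxl2 and Ptx3 at 0 in every pool, and 3 were tested (Cyp19a1, Has2 and Kitl). The summed level of the 12 was 69.8 to 85.6 CPM in the controls and 90.3 to 98.8 CPM with quercetin, most of it Cyp19a1, the aromatase gene. Among these 3, all quercetin pools lay above all control pools under TMM for 2, Cyp19a1 and Kitl. Among the 10 oocyte markers this held for 1, Gdf9, against 5.43% of all genes tested. Kitl, a granulosa growth factor gene, and Ooep, an oocyte gene, had an unadjusted p under 0.05 by edgeR's quasi-likelihood test. They were 1 of the 3 and 1 of the 10 markers tested, against 4.03% of all genes tested. Their log2 fold changes were 0.59 (SE 0.21) for Kitl and -0.92 (SE 0.38) for Ooep, with an adjusted p of 0.988 each by edgeR's quasi-likelihood test. The part of these markers in the results was not tested. Fewer cells of a type and less RNA per cell cannot be told apart in pools of this kind.

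Of the pair of genes for the PRC1 ubiquitin ligase, almost all reads belonged to Rnf2. Ring1 (ENSMUSG00000024325, GRCm38 chr17:34020792-34024680, minus strand) had 0 counts in all 3 control pools and in quercetin pools 1 and 3, and 2 counts in quercetin pool 2. Its exons overlapped no other gene and shared no 31-base word with one. Rnf2 (ENSMUSG00000026484, chr1:151458004-151500955, minus strand) had 1944, 1894 and 2263 counts across the controls and 1939, 2933 and 1917 counts with quercetin. Set against Ring1 at a floor of 3 counts in each pool, and per kilobase of exon, Rnf2 was at least 496-fold higher in every pool. This floor covers counting error only. The promoters of both genes are shown because their transcripts differed so widely, and each runs from 250 bases before to 50 after the RefSeq start on GRCm38.p6, with CG dinucleotides in capitals. The Ring1 window is chr17:34024631-34024930 and the Rnf2 window is chr1:151500942-151501241, both read on the minus strand.
Ring1: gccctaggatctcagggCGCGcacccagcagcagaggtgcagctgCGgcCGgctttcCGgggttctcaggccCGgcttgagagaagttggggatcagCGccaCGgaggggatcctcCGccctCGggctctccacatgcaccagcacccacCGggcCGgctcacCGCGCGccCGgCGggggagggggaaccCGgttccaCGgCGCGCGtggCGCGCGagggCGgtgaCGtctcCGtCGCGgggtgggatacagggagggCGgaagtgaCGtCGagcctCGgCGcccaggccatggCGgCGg
Rnf2: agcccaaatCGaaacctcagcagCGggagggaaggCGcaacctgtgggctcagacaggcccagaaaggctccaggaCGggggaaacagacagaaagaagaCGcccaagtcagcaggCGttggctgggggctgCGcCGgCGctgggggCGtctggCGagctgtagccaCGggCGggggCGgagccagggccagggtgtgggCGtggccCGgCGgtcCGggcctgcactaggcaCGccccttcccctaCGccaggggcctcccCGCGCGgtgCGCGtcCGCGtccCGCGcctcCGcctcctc
The Ring1 window held 37 CG and the Rnf2 window 30, against a median of 7 over 32851 RefSeq promoters of the same length. Fewer CG were found in 94.4% of those promoters than in Ring1, and in 88.3% than in Rnf2. Both promoters were thus rich in CG, while a single one of the pair had appreciable RNA. These windows are annotated starts, and the start used in the oocyte was not measured.

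With quercetin, Rnf2 was at 242, 321 and 225 CPM, against 218, 227 and 254 CPM in control pools. The groups overlapped, and quercetin pool 2 was the highest of the 6. The means were 233 ± 18.9 CPM (SD, n = 3) and 263 ± 51.1 CPM (SD, n = 3). This gave a log2 fold change of quercetin over control of 0.17 (SE 0.17, 95% interval -0.20 to 0.55), with an adjusted p of 0.988 by edgeR's quasi-likelihood test (Benjamini-Hochberg adjusted). Without quercetin pool 2 the log2 fold change of Rnf2 was 0.0066. No fold change was computed for Ring1, which did not reach the count minimum.

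The methyltransferase pair was also unequal, with Ezh2 far above Ezh1. Ezh2 (ENSMUSG00000029687, chr6:47530139-47595341, minus strand) encodes the more active of the enzymes in dividing cells, and EZH1 is the form more often found in resting cells. Per kilobase of exon, Ezh2 was 24.6, 20.2 and 24.4 times as high as Ezh1 in control pools and 36.5, 45.75 and 18.5 times as high in quercetin pools. The ratio was thus lowest and highest within the quercetin group, whose pools surrounded the control pools. The promoters of this pair are shown for the same reason as those above, in the same format. The Ezh1 window is chr11:101226414-101226713 and the Ezh2 window is chr6:47594981-47595280, both read on the minus strand.
Ezh1: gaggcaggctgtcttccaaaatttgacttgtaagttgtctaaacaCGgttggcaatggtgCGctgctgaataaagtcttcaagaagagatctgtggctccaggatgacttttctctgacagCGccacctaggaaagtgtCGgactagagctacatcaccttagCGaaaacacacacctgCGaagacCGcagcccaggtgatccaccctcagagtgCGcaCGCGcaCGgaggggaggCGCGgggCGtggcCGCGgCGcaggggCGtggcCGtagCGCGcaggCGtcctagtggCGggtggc
Ezh2: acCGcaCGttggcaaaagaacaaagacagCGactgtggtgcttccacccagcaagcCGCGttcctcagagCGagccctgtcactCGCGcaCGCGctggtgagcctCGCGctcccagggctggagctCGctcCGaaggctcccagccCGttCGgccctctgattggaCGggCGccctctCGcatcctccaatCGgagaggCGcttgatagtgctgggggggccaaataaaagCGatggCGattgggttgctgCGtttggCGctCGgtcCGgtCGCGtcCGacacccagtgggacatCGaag
The Ezh1 window held 23 CG and the Ezh2 window 31, more than 78.5% and 89.4% of RefSeq promoters. The E2F-type motifs TTTCGCGC and TTTGGCGC were searched on both strands, where a site read from opposite strands can hold both. TTTGGCGC was present in the Ezh2 window and in no other of the windows found for the 10 genes. Either motif was present in 0.813% of all RefSeq promoters, TTTCGCGC in 0.323% and TTTGGCGC in 0.514%. A match of letters is a description, and binding was not measured. Windows were found for 8 of the 10 genes, and Pcgf1 and Cbx2 had no entry.

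Ezh2 ranged over 776, 573.5 and 669 CPM in the controls and over 724, 656 and 698 CPM with quercetin. The quercetin pools all lay within the control range. Its means were 673 ± 101 CPM and 692.5 ± 34.5 CPM (SD, n = 3 each), giving a log2 fold change of 0.042 (SE 0.15, 95% interval -0.29 to 0.38). Across the 6 pools the highest level was 1.35 times the lowest.

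Ezh1 (ENSMUSG00000006920, chr11:101191115-101226463, minus strand) varied more. Control pools 1 to 3 were at 35.1, 31.6 and 30.5 CPM, and quercetin pools 1 to 3 at 22.1, 16.0 and 42.0 CPM. Quercetin pools 1 and 2 lay below every control pool, and quercetin pool 3 lay above every one. The means were 32.4 ± 2.41 CPM and 26.7 ± 13.6 CPM (SD, n = 3 each). Quercetin over control gave a log2 fold change of -0.28 (SE 0.33, 95% interval -1.02 to 0.46), with an adjusted p of 0.988 by edgeR's quasi-likelihood test (Benjamini-Hochberg adjusted). Without quercetin pool 3 the log2 fold change was -0.77, with an unadjusted p of 0.0081 and an adjusted p of 0.252 in the same edgeR test. Without quercetin pool 2 it was -0.015 and without quercetin pool 1 it was -0.16, so its size rested on which quercetin pools were used. The quercetin pools were also split over all genes. On the first principal component, which held 32.4% of the variance, quercetin pools 1 and 2 were at -37.9 and -30.9 and quercetin pool 3 at 30.85, while control pools were at -3.34, 31.25 and 10.1. The part of this split in the Ezh1 values was not tested.

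**Figure D1:**
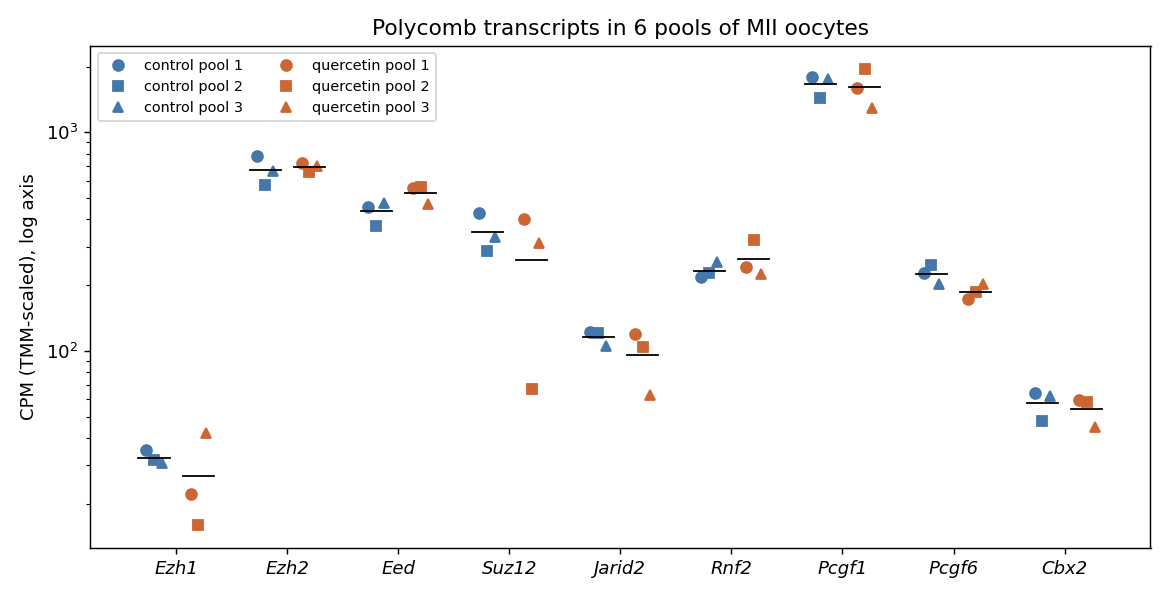
Level of each tested Polycomb gene in every pool, in CPM on a log axis, with control pools in blue, quercetin pools in orange, the marker shape giving the pool number and a black line at each group mean. Ring1 is left out, since it had 2 counts in all. Suz12 in quercetin pool 2, at 67.0 CPM, stands far below its other pools, and Ezh1 is lowest and highest among quercetin pools.

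Eed and Suz12, which hold PRC2 together, differed in their spread over pools. Eed (ENSMUSG00000030619, chr7:89954654-89980983, minus strand) encodes the subunit that binds the methylated histone and stimulates the enzyme. Its level was 455, 373 and 474.5 CPM across the controls and 553, 564 and 469.5 CPM across the quercetin pools. Quercetin pools 1 and 2 were above every control pool, and quercetin pool 3 was just below control pool 3. The groups therefore overlapped under TMM, but they did not overlap when scaled by library size alone or by the size factors of DESeq2. The means were 434 ± 53.7 CPM and 529 ± 51.7 CPM (SD, n = 3 each). Of the 9 genes tested, Eed had the highest log2 fold change, 0.28 (SE 0.15, 95% interval -0.054 to 0.62), with an adjusted p of 0.988 by edgeR's quasi-likelihood test (Benjamini-Hochberg adjusted). A two-sided exact permutation test over the pools gave p = 0.2, where the smallest p that 3 pools against 3 allow is 0.1. E230029C05Rik on the other strand covers 6.82% of the Eed exons, and the files do not say whether strand was used in counting.

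Suz12 (ENSMUSG00000017548, chr11:79993106-80034123, plus strand) encodes the scaffold of PRC2. It had 3833, 2389 and 2969 counts across the controls and 3194, 613 and 2665 counts with quercetin, or 429, 286 and 333 CPM against 399, 67.0 and 313 CPM. Quercetin pool 2 was 4.27-fold below the next lowest pool, and the other quercetin pools lay within the control range. The means were 349 ± 72.7 CPM and 260 ± 172 CPM (SD, n = 3 each). Quercetin over control gave a log2 fold change of -0.43 (SE 0.50, 95% interval -1.57 to 0.71), with an adjusted p of 0.988 by edgeR's quasi-likelihood test (Benjamini-Hochberg adjusted). It was 0.028 without quercetin pool 2, -0.88 without quercetin pool 1 and -0.77 by limma-voom. The coefficient of variation over the 6 pools was 42.1%, against a median of 14.9% over 2742 genes with a mean of at least 50 CPM, of which 97.05% varied less.

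Quercetin pool 2 had 9938743 counts in all, the most of the 6 pools. Values of the next 2 tested protein-coding genes on each side, by start position on chromosome 11, are given beside those of Suz12. Atad5, a genome maintenance gene, was at 60.8 CPM in quercetin pool 2 and at 53.9 to 66.7 CPM in the others. Utp6, a ribosome biogenesis gene, was lowest in that pool too, at 31.8 CPM against 34.7 CPM in the next lowest. Crlf3, at 2.08 against 3.00 CPM, and Rab11fip4, at 1.31 against 2.02 CPM, were also lowest there at these low levels. Genes at least 3-fold below all other pools in 1 pool were few. Among the 2742 genes, quercetin pool 2 had 6 (Suz12, Mier3, Crk, Il1r1 and Adam10 among them), quercetin pool 1 had 7, quercetin pool 3 had 0, and control pools had 1, 2 and 1. No gene was as far above all other pools in any pool. These genes and neighbours were chosen after the Suz12 values were seen. Relative to Eed and per kilobase of exon, Suz12 was at 0.730, 0.593 and 0.543 in control pools and at 0.558, 0.092 and 0.5155 in quercetin pools.

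Jarid2 (ENSMUSG00000038518, chr13:44729474-44921643, plus strand) encodes a PRC2 cofactor of the Jumonji family without demethylase activity. Across the controls it stood at 121, 120.1 and 105 CPM, and after quercetin at 119, 104 and 62.9 CPM. Here quercetin pool 3 was the low one, and the remaining quercetin pools lay near the control values. The means were 115 ± 9.21 CPM and 95.3 ± 29.1 CPM (SD, n = 3 each), with a log2 fold change of -0.28 (SE 0.23, 95% interval -0.79 to 0.24). Without quercetin pool 3 it was -0.047, and without quercetin pool 1 it was -0.46. Ezh1 and Suz12 were thus lowest in quercetin pool 2, and Jarid2 was lowest in quercetin pool 3.

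**Figure D2:**
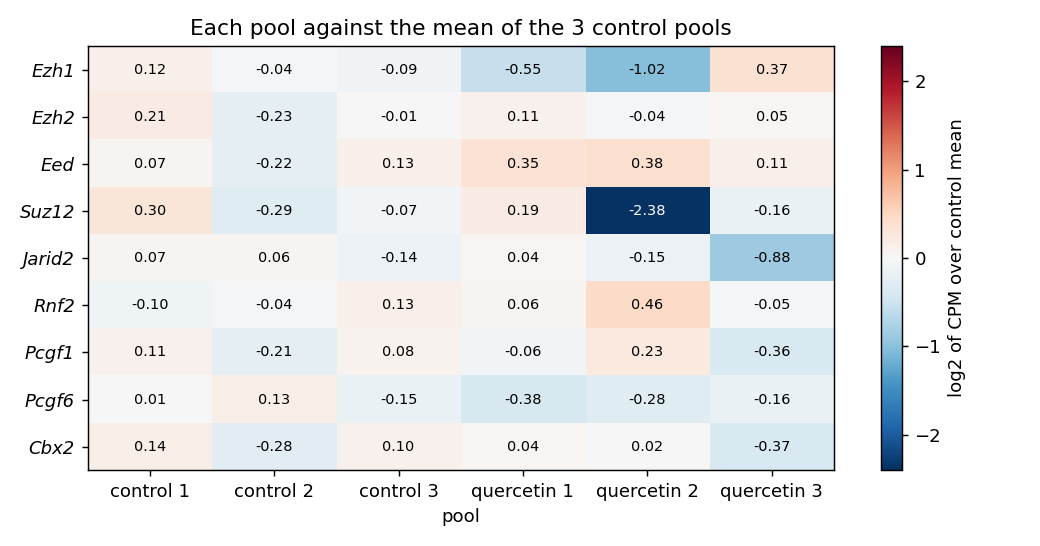
Heat map of the 9 tested Polycomb genes (rows) in the 6 pools (columns), coloured by the log2 of CPM over the mean of the control pools. Suz12 in quercetin pool 2 is at -2.38, Ezh1 in quercetin pools 1 and 2 at -0.55 and -1.02 and Jarid2 in quercetin pool 3 at -0.88, so the lowest values fall in more than 1 pool.

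The PCGF genes of PRC1 were at very unlike levels. Pcgf1 (ENSMUSG00000069678, chr6:83077869-83080855, plus strand) marks the variant PRC1 that contains KDM2B and BCOR. Control pools 1 to 3 were at 1796, 1442 and 1756 CPM, and quercetin pools 1 to 3 at 1592, 1955 and 1298 CPM. The lowest and the highest pool were both in the quercetin group. Its means were 1665 ± 194 CPM and 1615 ± 329 CPM (SD, n = 3 each), giving a log2 fold change of -0.044 (SE 0.18, 95% interval -0.45 to 0.36). Of its 31-base words 23.1% are shared with the gene Gm8930, which was itself counted at 1379 to 2329 reads per pool, so some reads could have been split between them.

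Pcgf6 (ENSMUSG00000025050, chr19:47033617-47050906, minus strand) belongs to the variant PRC1 that contains MGA and E2F6 and represses germline genes in embryonic stem cells. Its level was 226, 247 and 202 CPM across the controls and 173.5, 185 and 201.5 CPM across the quercetin pools. The quercetin pools all lay below the control pools, the closest by under 1 CPM. The means were 225 ± 22.4 CPM and 187 ± 14.1 CPM (SD, n = 3 each). Quercetin over control gave a log2 fold change of -0.27 (SE 0.14, 95% interval -0.59 to 0.049), with an unadjusted p of 0.0873 and an adjusted p of 0.988 by edgeR's quasi-likelihood test (Benjamini-Hochberg adjusted). The exact permutation test gave p = 0.1, the smallest possible with this design. The groups overlapped when scaled by library size alone or by the size factors of DESeq2, so the separation rested on the TMM factors.

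Cbx2 (ENSMUSG00000025577, chr11:119022962-119031270, plus strand) encodes a chromodomain protein of canonical PRC1 that compacts nucleosomes. Across the controls it stood at 63.9, 47.8 and 62.0 CPM, and after quercetin at 59.7, 58.5 and 44.7 CPM. Each group held 1 pool below 50 CPM, and the groups overlapped. The means were 57.9 ± 8.81 CPM and 54.3 ± 8.35 CPM (SD, n = 3 each), with a log2 fold change of -0.093 (SE 0.19, 95% interval -0.53 to 0.34).

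Of the 9 Polycomb genes tested, 0 passed an adjusted p of 0.05 by edgeR's quasi-likelihood test, as did 0% of the 11842 genes tested over the whole table. DESeq2, edgeR's likelihood ratio test and limma-voom also called 0 of them. By edgeR's quasi-likelihood test their adjusted p ran from 0.988 to 0.996. At an unadjusted p of 0.05, 0 of the 9 passed, against 4.03% of all genes tested (253 higher and 224 lower with quercetin). Without quercetin pool 3, 3 of the 9 passed it (Ezh1, Eed and Pcgf6) against 12.8% of all genes in the same fit, and 0 passed the adjusted threshold. The quercetin pools lay wholly above the control pools for 0 of the 9, against 5.43% of all genes, and wholly below for 1, Pcgf6, against 5.15%. The log2 fold changes were positive for 3 genes (Ezh2, Eed and Rnf2) and negative for 6, with a median of -0.093. Over all genes tested 5490 were positive and 6352 negative, with a median of -0.026. For 7 of the 9 the 95% interval lay within a 2-fold change in either direction. The same held for 7187 of the 11842 genes tested over the whole table. The exceptions among the 9 were Ezh1 and Suz12, whose intervals reached past a 2-fold decrease.

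**Figure D3:**
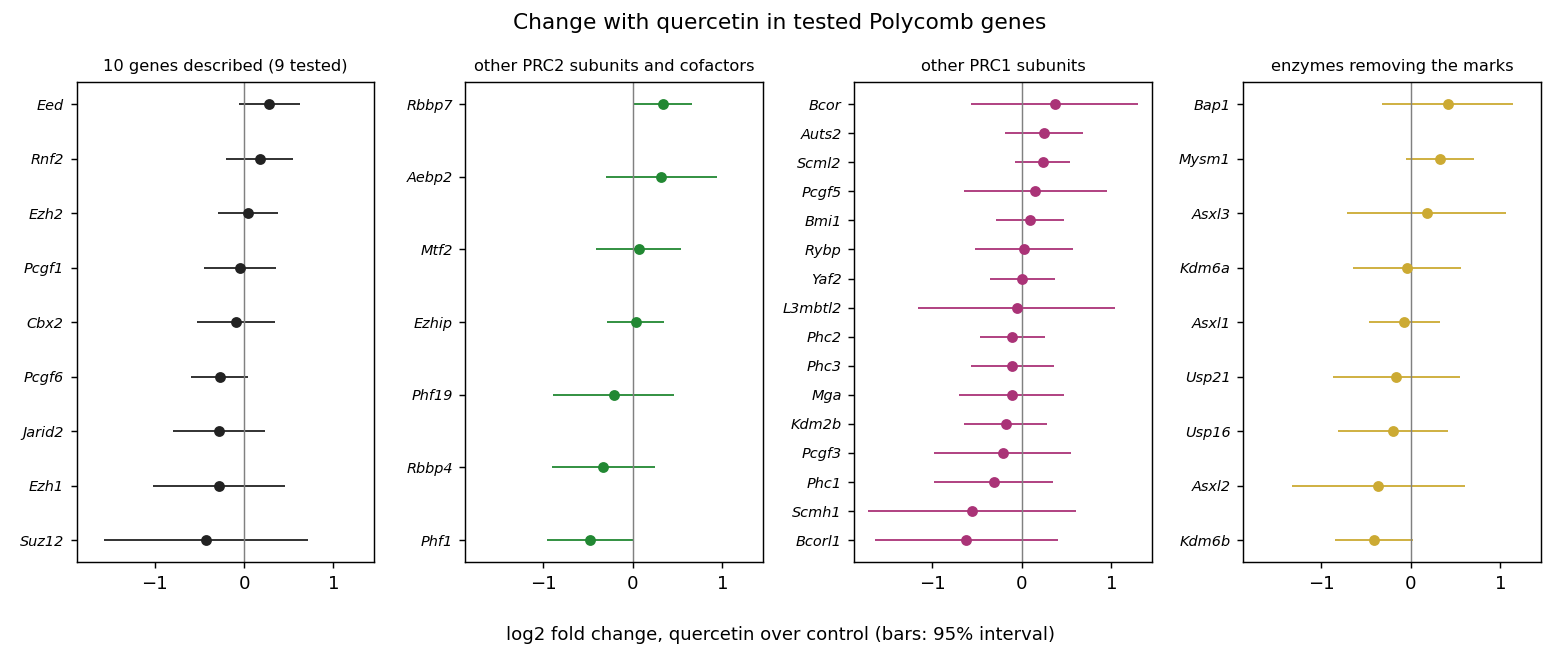
Log2 fold change of quercetin over control is shown for the tested genes of 4 lists. They are 9 of the 10 Polycomb genes described, other PRC2 genes, other PRC1 genes and the enzymes that remove the marks with their cofactors. Points are the estimates and bars the 95% intervals from edgeR's quasi-likelihood fit. The 9 genes run from -0.43 for Suz12 to 0.28 for Eed and each interval crosses 0, while that of Rbbp7 runs from 0.011 to 0.66.

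Levels were compared between genes only per kilobase of exon, as the mean over the 6 pools with the range over pools. Pcgf1 stood first at 994.5 CPM per kilobase (787 to 1186), above 99.5% of all genes tested. Next came the PRC2 core, with Eed at 126 (97.5 to 147), Ezh2 at 102 (85.9 to 116) and Suz12 at 61.6 (13.6 to 86.7) CPM per kilobase. Rnf2 followed at 60.0 (52.7 to 77.7) and Pcgf6 at 41.0 (34.5 to 49.2) CPM per kilobase. The low end held Cbx2 at 13.2 (10.5 to 15.0), Jarid2 at 10.85 (6.47 to 12.5) and Ezh1 at 3.97 (2.15 to 5.65) CPM per kilobase. Ranges over pools overlapped between the neighbours Eed and Ezh2, Ezh2 and Suz12, Suz12 and Rnf2, and Cbx2 and Jarid2. Within each pool Ezh2 was at 0.667 to 0.978 of Eed and Suz12 at 0.138 to 0.746 of Ezh2, so both orders were the same in all 6 pools. Rnf2 was at 0.608 to 5.73 of Suz12, above it in quercetin pool 2 alone, and Jarid2 at 0.617 to 1.10 of Cbx2, above it in control pool 2 alone. The ranges of Pcgf1 and Eed, Rnf2 and Pcgf6, Pcgf6 and Cbx2, and Jarid2 and Ezh1 did not overlap, although the range of Suz12 also took in that of Pcgf6. Counted per kilobase of the longest coding transcript, Ezh2 (245) was above Eed (233), Pcgf6 (95.4) above Rnf2 (77.4) and Suz12 (69.6), and Jarid2 (17.6) above Cbx2 (14.7), while Pcgf1 stayed first and Ezh1 last of the 9.

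**Figure D4:**
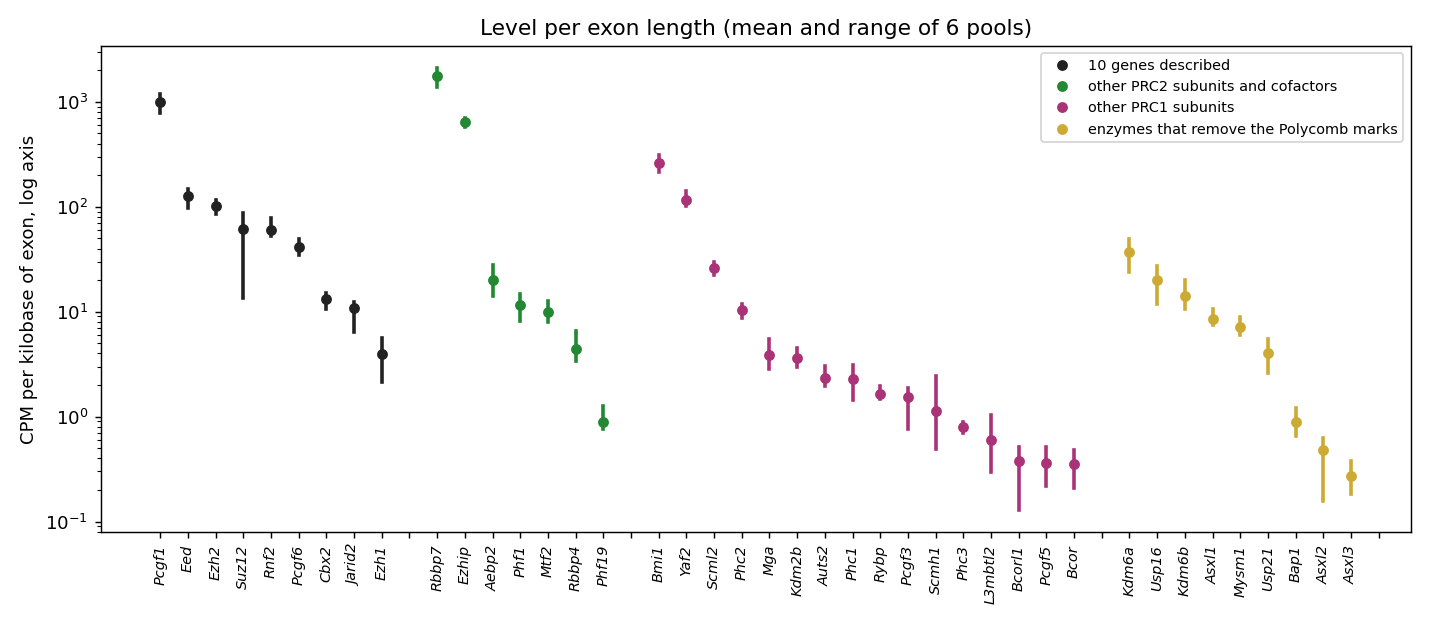
Level per kilobase of exon for the Polycomb genes and the wider lists, on a log axis, with a dot at the mean and a line over the range of the 6 pools, coloured by list. Genes at 0 in any pool, Ring1 among them, cannot be drawn on this axis. Pcgf1 is the highest of the 10 genes described, at 994.5 CPM per kilobase, and Ezh1 the lowest drawn, at 3.97.

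The other Polycomb genes, the enzymes that remove the marks and their cofactors formed a list of 39 genes, of which 32 were tested. Of these, 0 passed the adjusted threshold and 1, Rbbp7, passed an unadjusted p of 0.05, against 4.03% of all genes tested. Without quercetin pool 3, 6 passed it, against 12.8% of all genes in that fit. Their median log2 fold change was -0.064, and 14 were positive and 18 negative, against 5490 positive and 6352 negative over all genes tested. Rbbp7, which encodes a histone-binding subunit shared by PRC2 and other chromatin complexes, was at 4443, 4050 and 4979 CPM in the controls and at 6110, 5679 and 5242 CPM with quercetin. All quercetin pools were above all control pools, under each of the 3 scalings. Its log2 fold change was 0.34 (SE 0.14, 95% interval 0.011 to 0.66), with an unadjusted p of 0.044 and an adjusted p of 0.988 by edgeR's quasi-likelihood test. Its exons share 16.5% of their 31-base words with other genes.

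PRC2 partners also came in unequal pairs. Rbbp7 was 261 to 610 times as high per kilobase as its paralogue Rbbp4. Ezhip, which encodes an inhibitor of EZH2 and is listed in the annotation as AU022751, was at 1407 ± 110.5 CPM in control and 1437 ± 142 CPM in quercetin pools (SD, n = 3 each). Per kilobase it was 5.09 to 7.38 times as high as Ezh2 in all 6 pools. Aebp2, which encodes a DNA-binding cofactor of PRC2, had a log2 fold change of 0.32 (SE 0.27). Epop was too low to test.

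In PRC1, Bmi1, a PCGF gene of canonical complexes, was at 1013 ± 71.1 CPM in control and 1080 ± 205 CPM in quercetin pools (SD, n = 3 each). Per kilobase it was 0.237 to 0.299 of Pcgf1, though 28.2% of its 31-base words are shared with other genes. Among these, Gm5946 was itself counted at 3767 to 6875 reads per pool, beside 7250 to 11369 for Bmi1. Some reads could have been split between them, so the ratio to Pcgf1 is uncertain. Yaf2, whose protein is a subunit of variant PRC1, had a log2 fold change of 0.0043 (SE 0.16), and Scml2, whose protein binds PRC1 in the germline, had 0.23 (SE 0.14). Of the other CBX genes, Cbx6 and Cbx8 had 0 counts in every pool, and Cbx7 was too low to test, as were Pcgf2 and E2f6.

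The enzymes that take the marks off and their cofactors (Asxl1, Asxl2 and Asxl3) were all tested, 9 of 9. Of these genes, 0 passed an unadjusted p of 0.05, against 4.03% of all genes tested. Kdm6a, which encodes a demethylase of lysine 27, had a log2 fold change of -0.042 (SE 0.27). Kdm6b, which encodes a related demethylase, had -0.41 (SE 0.19), with an unadjusted p of 0.063 by edgeR's quasi-likelihood test. Usp16, which encodes a deubiquitinase of H2A, was at 190, 192 and 229 CPM in the controls and at 159.5, 112 and 259 CPM with quercetin. As for Ezh1, its quercetin pools 1 and 2 were below and its quercetin pool 3 above every control pool.

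RNA of classical Polycomb targets was mostly absent or low, as was that of most genes of the whole table. Of 39 Hox genes, 20 had 0 counts in every pool. So did 28989 of the 53465 genes of the whole table, a similar share. The Hox genes tested were 3 of the 39, Hoxa7, Hoxd8 and Hoxd13, against 11842 of the 53465 genes of the whole table. Of the 3, 0 passed an unadjusted p of 0.05, against 4.03% of all genes tested. Hoxa7 had 595, 479 and 516 counts across the controls and 543, 555 and 440 counts with quercetin, with a log2 fold change of -0.014. Hoxaas3 on the other strand covers 20.4% of the Hoxa7 exons, so some of these reads could belong to it. Hoxd13 had 28, 19 and 27 counts across the controls and 18, 12 and 15 counts with quercetin, all below the controls, with a log2 fold change of -0.67 (SE 0.36). Of 6 genes known for maternal imprinting by methylation of lysine 27, Jade1 and Xist were at 0 in all pools, and Gab1 alone was tested, with a log2 fold change of 0.38 (SE 0.43). Slc38a4, an amino acid transporter gene, had 2 to 6 counts in each pool, and Sfmbt2, a Polycomb group gene, had 0 to 5.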

How the data were processed

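RNA from 6 pools of MII oocytes, 3 control and 3 with 10 μM quercetin, was sequenced on an Illumina instrument. Reads were aligned by Hisat2 (GRCm38.91). The authors deposited whole-number counts per Ensembl gene, without normalization. The submitters' processing notes also list CASAVA 1.8, TopHat2 2.0.6, mm10 and GRCm38. The counting program and its strand setting are not given in the sources used here. Columns were matched to samples by the names in the labels.

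The 10 genes and all wider lists were chosen with earlier results of these data known. Positions, exon lengths, overlaps and shared 31-base words came from GENCODE M21 (GRCm38), and promoters from RefSeq GRCm38.p6. Genes passing filterByExpr (minimum count 10) were tested in edgeR 4.0.16 (R 4.3.3) by TMM scaling and the quasi-likelihood test, with no covariate and Benjamini-Hochberg adjustment over 11842 genes. The script was tested on simulated data with 200 changed genes. A gene was called at an adjusted p under 0.05 and, for counts over the whole table, a fold change over 2. Total counts of 7880467 to 9938743 put 3 counts at 0.328 to 0.375 CPM. Alternatives were DESeq2 1.42.0, the likelihood ratio test, limma-voom (limma 3.58.1), other scalings and filters, a replicate block and leaving out each pool. The text names all 10 genes, and from wider lists those with an unadjusted p under 0.05 and the 3 highest per kilobase. Genes named beyond this rule were chosen after their values were seen. Some genes that the rule would name are not reported here.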

Additional observations from a re-analysis of the deposited data

How the results depend on the processing

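No Polycomb gene of the 10 passed an adjusted p of 0.05 under any alternative run. Of 126 fold changes recomputed for the 9 tested genes, 119 kept their direction and 7 reversed. Ezh2 went to -0.040 with library size scaling only and to -0.059 without control replicate 2. Pcgf1 went to 0.016 without control replicate 1, 0.0052 without control replicate 3 and 0.093 without quercetin replicate 3. Suz12 went to 0.028 without quercetin replicate 2, and Cbx2 to 0.031 without quercetin replicate 3. Over the fits that left out 1 pool, the log2 fold change ran from -0.059 to 0.16 for Ezh2, -0.77 to -0.015 for Ezh1, -0.46 to -0.047 for Jarid2, 0.0066 to 0.28 for Rnf2, 0.19 to 0.36 for Eed, -0.33 to -0.20 for Pcgf6, -0.88 to 0.028 for Suz12, -0.20 to 0.093 for Pcgf1 and -0.21 to 0.031 for Cbx2. The cause was not tested.

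The number of the 9 genes past an unadjusted p of 0.05, 0 by TMM, was 1 with library size only (Pcgf6) and 0 to 3 over fits that left out 1 pool. The 3, without quercetin replicate 3, were Ezh1, Eed (0.36) and Pcgf6 (-0.33), in a fit where 12.8% of all genes passed against 4.03% with all pools. Among all genes tested, 0 were called, against 12 by DESeq2, 16 by the likelihood ratio test, 3 with no filter and 0 to 7 when 1 pool was left out. Among the 32 other Polycomb genes, erasers and cofactors, 1 passed an unadjusted p of 0.05. The number was 0 by the likelihood ratio test, 2 by limma-voom, 3 with library size only and 2 with the replicate block. When 1 pool was left out it was 0 to 6, with 6 reached without quercetin replicate 3. The share of all genes past an unadjusted p of 0.05 was 3.54% by the likelihood ratio test and 4.56% by limma-voom. With library size only it was 4.28% and with the block 4.15%.

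Labels number the pools 1 to 3 in both groups. Same-numbered pools had correlations of their deviations of 0.296, 0.101 and -0.030. None was computed between pools of different number, so these values cannot decide whether the pools were paired. The main fit treated them as sharing only a number, and the fit with a replicate block is given beside it. With the replicate block, 0 of the 9 genes passed the adjusted or the unadjusted threshold, and 0 genes of the whole table were called. In this edgeR fit with the block the log2 fold change was -0.39 for Ezh1 and -0.73 for Suz12, and limma-voom without the block gave -0.40 and -0.77. Beside the 2 in place of 1 among other Polycomb genes, the block moved none of the counts given here by over 1.5 times. With 3 pools a group, the intervals of Ezh1 and Suz12 reached past a 2-fold change, and the counts of Ring1 allowed no comparison.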
